A study of Mus musculus with 7 samples.

Results

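To describe how ERα neurons that respond to warming differ in the receptors through which they could sense feeding and energy state, the transcripts of 10 receptors for peptide and metabolic hormones were followed in 4 temperature-responsive (TR) and 3 non-responsive (NR) samples. The members were found by gene symbol, as receptors for leptin (Lepr), insulin (Insr), ghrelin (Ghsr), PACAP (Adcyap1r1), melanocortins (Mc3r, Mc4r), galanin (Galr1), opioid peptides (Oprk1, Oprm1) and neuropeptide Y (Npy1r), and make up 10 of the 24062 gene symbols counted. ZsGreen-positive neurons of the medial preoptic area (MPA) were recorded in slices from ERα-ZsGreen reporter mice (strain label Esr1-ZsGreen) on a C57BL/6J background, which per the methods were all female and between 10 and 14 weeks old. Each slice was warmed by 5 °C, from 25 °C to 30 °C, and 2 neurons of like response were drawn into the patch pipette and pooled as 1 sample. All 7 samples therefore share the reporter and the warming, and differ by whether the rise in firing rate passed the paper's cutoff for a temperature response. Non-responsive neurons may thus include some whose firing rose by less than this cutoff. The reporter is the basis on which cells were picked, so neurons without fluorescence were not chosen. The values need not come from the picked cells alone, since markers of other cell types were present in all samples (below). Nothing in the labels says that the samples came from different mice, so the p-values below measure the spread between these samples, which may in part be technical.

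The hypothalamus reads energy state through circulating hormones and locally released peptides. Leptin from fat and insulin from the pancreas act through a cytokine receptor and a receptor tyrosine kinase, respectively, whereas ghrelin, PACAP, melanocortins, galanin, opioid peptides and neuropeptide Y act through G protein-coupled receptors. The preoptic area is known as a centre for the control of body temperature, and several of these ligands are known to alter temperature or metabolism when given to the brain.

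Library totals ranged from 1914497 to 2814360 counts in TR samples and from 3309361 to 5125280 in NR samples, whereas the TR samples had more genes detected (19852 to 21177, against 17818 to 19820). Levels are given as CPM, counts scaled by library total and TMM factor. The floor of 3 counts was worth 0.568 to 1.63 CPM depending on the sample, a limit for counting error only, since the reads carry no molecular identifiers. Between 10 and 27 counts per sample fell on Esr1, the gene of ERα itself. Although the mice are described as female, the Y-linked gene Ddx3y had 684 to 1150 counts in each sample and Xist had 2 to 14. The summed level of 6 markers listed for preoptic Esr1 neurons was 1245.1 to 1677.1 CPM in TR and 1099.8 to 1191.2 CPM in NR samples (2 of 6 higher). These 6 are Esr1, Gad1, Gad2, Slc32a1, Slc17a6 and Slc18a2. Most of the sum came from Gad1, Gad2 and Slc17a6, whereas Esr1 was at 3.60 to 11.4 CPM, so the sum does not show preoptic identity. The summed level of 6 general neuron markers was 2990.2 to 3448.0 CPM in TR and 2699.3 to 3120.5 CPM in NR samples (1 higher, 2 lower). Markers of other cell types were present in all samples. The summed level of 6 endothelial markers was 102 to 346 CPM in TR and 21.0 to 72.7 CPM in NR samples (3 of 6 higher), that of 6 astrocyte markers 1203.3 to 1385.6 and 988 to 1168.8 CPM (2 higher, 1 lower), and that of 6 oligodendrocyte markers 3080.1 to 4136.4 and 2674.5 to 3342.6 CPM (2 higher, 1 lower). Those of 6 microglia markers (426 to 476 and 464 to 499 CPM), 6 choroid plexus markers (313 to 407 and 267 to 348 CPM) and 5 markers of cortical and hippocampal neurons (342 to 508 and 461 to 491 CPM) overlapped between the groups, and that of 5 ependymal and tanycyte markers was 41.2 to 50.3 in TR and 57.1 to 65.5 CPM in NR samples. No marker was at 0 in any sample, and the part of such RNA in the results below was not tested. Markers counted as higher or lower in brackets passed the threshold given below, which 30% of all genes tested also passed. Since the samples are pools, fewer cells of a type and less RNA per cell cannot be told apart.

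All 10 receptors had at least 10 counts in at least 3 samples and were tested with edgeR's quasi-likelihood test. With a threshold of 0.05 on the Benjamini-Hochberg adjusted p, 1 receptor differed between TR and NR neurons, Adcyap1r1, which was lower in TR neurons. Of all 14407 genes tested, 30% passed the same threshold (15.1% higher and 14.9% lower in TR). The share depended on level, at 16.0% of the genes with a mean under 15 CPM, where 6 of the 10 receptors lie, and 36.0% of the others (a limit chosen after the values were seen). Separate, non-overlapping ranges were seen for 3 of the 10 receptors (Adcyap1r1, Lepr and Insr), against 35.4% of all genes tested. The log2 fold change (TR minus NR) was positive for 7 receptors and negative for 3, with a median of 0.23 beside 0.0071 over all genes and 0.22 over the genes under 15 CPM. For 4 of the 10 receptors (Adcyap1r1, Lepr, Insr and Oprk1) the unadjusted p was under 0.05, a share close to that over all genes (5948 of 14407).

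**Figure D1:**
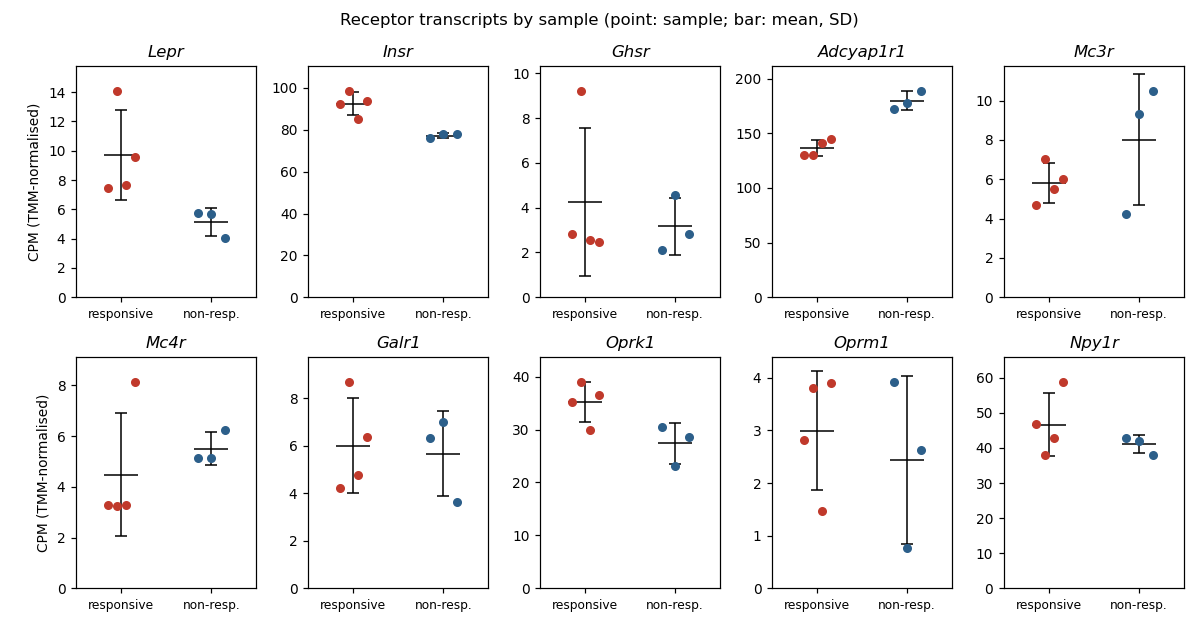
Level of each receptor transcript in CPM (vertical axes, each starting at 0) in the 4 temperature-responsive (red) and 3 non-responsive (blue) samples, with points for samples and bars for mean and SD. The groups are apart for Lepr, Insr and Adcyap1r1 and overlap for the other 7 receptors, with 1 high TR sample for Ghsr (9.22 CPM) and for Mc4r (8.14 CPM).

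**Figure D2:**
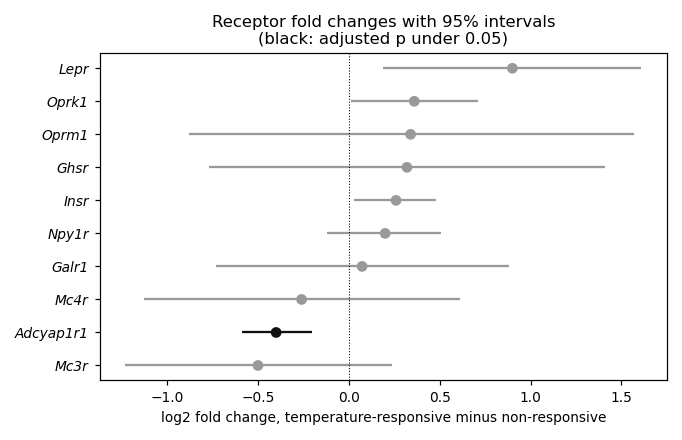
Log2 fold change of each receptor, temperature-responsive minus non-responsive (horizontal axis), with 95% intervals, drawn black where the adjusted p was under 0.05. Of the 10 receptors, Adcyap1r1 is drawn black (-0.40), and the intervals of Lepr, Insr and Oprk1 lie above 0.

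Adcyap1r1 encodes the PAC1 receptor, the selective receptor of the neuropeptide PACAP. The gene lies on chromosome 6 of mm10 from 55451978 to 55501451 on the plus strand, and its longest annotated transcript has 16 exons. Its level was 130, 130, 141 and 145 CPM in the TR samples (240 to 409 counts) and 172, 178 and 189 CPM in the NR samples (571 to 938 counts). Every TR sample was below every NR sample. The means were 136 ± 7.62 CPM (SD, n = 4) and 180 ± 8.47 CPM (SD, n = 3), a 1.32-fold lower level in TR neurons (log2 fold change -0.40, SE 0.0941, 95% interval -0.59 to -0.20, edgeR quasi-likelihood test, Benjamini-Hochberg adjusted p = 0.00313). Omission of any single sample left the log2 fold change at -0.42 to -0.36. The call held in 18 of 19 alternative analyses and was lost when the genes detected per sample entered as a covariate (-0.34, adjusted p = 0.333, where the adjusted p ranged from 0.000163 to 0.333 over the alternatives). That covariate left 1 gene called of all genes tested.

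The promoter of Adcyap1r1, the receptor that passed the threshold, is shown beside that of Lepr, the receptor with the largest fold change, as the 250 bases before the annotated start (RefSeq, GRCm38.p6). The Adcyap1r1 window is chr6:55451728-55451977 on the plus strand and the first of 2 Lepr windows is chr4:101717157-101717406 on the plus strand, and capitals mark a match to GGGCGG on either strand (CCGCCC on the strand printed).
Adcyap1r1: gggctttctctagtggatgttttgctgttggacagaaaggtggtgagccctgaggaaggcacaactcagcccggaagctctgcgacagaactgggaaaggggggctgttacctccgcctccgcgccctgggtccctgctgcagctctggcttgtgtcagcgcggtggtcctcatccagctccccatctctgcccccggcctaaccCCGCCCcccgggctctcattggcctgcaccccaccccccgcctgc
Lepr: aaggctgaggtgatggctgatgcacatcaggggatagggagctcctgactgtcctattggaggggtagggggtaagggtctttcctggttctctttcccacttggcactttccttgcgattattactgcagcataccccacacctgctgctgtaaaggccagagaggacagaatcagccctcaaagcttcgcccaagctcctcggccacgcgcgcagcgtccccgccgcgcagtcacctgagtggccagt

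The Adcyap1r1 window had a GC content of 65.6%, above that of 83.8% of all 32851 promoter windows, and held 1 match to GGGCGG, a motif found in 32.7% of all windows. The Lepr window printed had a GC content of 58.4% and no match, whereas the other Lepr window, chr4:101717656-101717905, had a GC content of 54.8% and 1 match. None of the 3 windows held TGACGTCA (1.55% of windows) or TATAAA (12.4%) on either strand, which says only that these letters were absent from the windows searched.

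Lepr encodes the leptin receptor and lies on chromosome 4 from 101717404 to 101815352. Its level was 7.48, 14.1, 7.68 and 9.56 CPM in the TR samples and 5.73, 5.68 and 4.03 CPM in the NR samples, from only 16 to 30 counts per sample. Every TR sample was above every NR sample, with the second TR sample highest. The means were 9.70 ± 3.08 CPM (SD, n = 4) and 5.15 ± 0.968 CPM (SD, n = 3), a 1.86-fold difference that narrowly missed the threshold (log2 fold change 0.90, SE 0.345, 95% interval 0.19 to 1.61, edgeR quasi-likelihood test, Benjamini-Hochberg adjusted p = 0.0506). Over the alternatives the adjusted p ranged from 0.011 to 0.903, and it was past the threshold in 7 of 19. These included the fits without the first TR sample (0.99, adjusted p = 0.0436) and without the third (1.00, adjusted p = 0.0473), and a single draw of all samples down to the smallest total (1.60, adjusted p = 0.011), which matched total counts only. It was not past the threshold without the second TR sample (0.69, adjusted p = 0.185), without the third NR sample (0.74, adjusted p = 0.163) or with a GC content offset (0.67, adjusted p = 0.152). With the genes detected as a covariate the log2 fold change was 0.21 (adjusted p = 0.903 in the edgeR fit). Other genes of low level lay on the same side, since 563 of the 4292 genes tested with a mean under 15 CPM were higher in TR and 123 lower, against 1613 and 2028 of the other 10115 genes.

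Insr encodes the insulin receptor and lies on chromosome 8 from 3122061 to 3279617. It was measured at 92.2, 98.7, 85.2 and 93.8 CPM in the TR samples and at 76.0, 77.9 and 77.8 CPM in the NR samples. The NR samples lay within 2 CPM of one another, and all were below the lowest TR sample. The difference was small (92.5 ± 5.58 CPM, SD, n = 4, against 77.2 ± 1.05 CPM, SD, n = 3, or 1.19-fold) and did not pass the threshold (log2 fold change 0.26, SE 0.109, 95% interval 0.031 to 0.48, edgeR with Benjamini-Hochberg adjustment, adjusted p = 0.0768). It passed in 2 of 19 alternatives, with upper quartile normalisation (adjusted p = 0.027) and with at least 10 counts required in every sample (adjusted p = 0.0492). Over the 19, the adjusted p ranged from 0.027 to 0.624, the highest with the genes detected as a covariate.

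Ghsr, the receptor of ghrelin, had 6, 17, 7 and 7 counts in the TR samples (2.81, 9.22, 2.56 and 2.48 CPM) and 7, 24 and 14 counts in the NR samples (2.11, 4.55 and 2.82 CPM). The groups overlapped, and the second TR sample stood far above the other TR samples. The log2 fold change was 0.32 with a wide 95% interval from -0.77 to 1.41 (edgeR, Benjamini-Hochberg adjusted p = 0.678), so that no difference was detectable at this depth. It was -0.14 with the genes detected as a covariate.

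Both central melanocortin receptors had negative, uncalled log2 fold changes. Mc3r was at 4.68, 7.05, 5.48 and 6.02 CPM in the TR samples and at 4.22, 9.29 and 10.5 CPM in the NR samples, of which the first was the lowest of all 7. Its log2 fold change was -0.50 (95% interval -1.23 to 0.24, edgeR, Benjamini-Hochberg adjusted p = 0.306) and turned to 0.12 with the genes detected as a covariate. Mc4r, the receptor through which melanocortins reduce food intake, was at 3.27, 3.25, 3.29 and 8.14 CPM in the TR samples and at 5.13, 5.12 and 6.25 CPM in the NR samples. The first 3 TR samples were below all NR samples and the fourth was above them. The log2 fold change of Mc4r was -0.26 (95% interval -1.13 to 0.61, adjusted p = 0.678 in the same edgeR fit with Benjamini-Hochberg adjustment) and lay between -0.74 and -0.11 with each sample left out.

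Galr1, an inhibitory galanin receptor, was at 4.21, 8.68, 4.75 and 6.37 CPM in the TR samples and 6.34, 7.01 and 3.63 CPM in the NR samples. The groups covered nearly the same range (log2 fold change 0.073, 95% interval -0.73 to 0.88, edgeR, Benjamini-Hochberg adjusted p = 0.909). The sign turned without the second TR sample (-0.12) and without the third NR sample (-0.18).

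Of the opioid receptors, Oprk1, the kappa receptor and target of dynorphins, was the more abundant. It was at 35.1, 39.0, 30 and 36.5 CPM in the TR samples and at 30.5, 23.1 and 28.6 CPM in the NR samples, with overlap between the third TR and the first NR sample. The means were 35.1 ± 3.81 CPM (SD, n = 4) and 27.4 ± 3.83 CPM (SD, n = 3), and the log2 fold change of 0.36 (95% interval 0.013 to 0.71) did not pass the threshold (edgeR, Benjamini-Hochberg adjusted p = 0.108) in any of the 19 alternatives. It was 0.10 with a GC content offset. Oprm1, the mu receptor, had between 4 and 13 counts in each sample. Its levels were 2.81, 3.80, 1.46 and 3.89 CPM in TR and 3.92, 0.758 and 2.62 CPM in NR samples. The log2 fold change was 0.34 with an interval of -0.88 to 1.57 (edgeR, Benjamini-Hochberg adjusted p = 0.694), and was -0.12 without the second NR sample. In the annotation, 96 bases (1.19%) of the Oprm1 exons overlap exons of Ipcef1 on the opposite strand.

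Npy1r, the Y1 receptor of neuropeptide Y, was at 46.8, 38.0, 42.8 and 58.8 CPM in the TR samples and at 42.8, 42.1 and 38.1 CPM in the NR samples. The groups overlapped, and the fourth TR sample was highest (46.6 ± 8.89 CPM, SD, n = 4, against 41.0 ± 2.54 CPM, SD, n = 3). The log2 fold change of 0.20 (95% interval -0.12 to 0.51) did not pass the threshold (edgeR, Benjamini-Hochberg adjusted p = 0.351).

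To compare receptors with one another, levels were divided by the length of the longest annotated transcript. Adcyap1r1 was the most abundant at 25.4 CPM per kb (mean of 7 samples, 21.2 to 30.9), followed by Npy1r (14.7, range 12.6 to 19.6), Insr (9.19, range 8.13 to 10.6) and Oprk1 (6.81, range 4.95 to 8.35). Insr and Oprk1 were the only neighbours among these 4 whose ranges overlapped. Insr was nevertheless above Oprk1 in each of the 7 samples. The other 6 receptors were lower, at 2.57 CPM per kb for Mc3r, 1.96 for Galr1, 1.76 for Mc4r, 1.40 for Lepr, 1.14 for Oprm1 and 0.855 for Ghsr, and each overlapped its neighbour in this order. With the union of all exons as the length, Oprm1 (0.342 CPM per kb) came after Ghsr, and the other places were kept.

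As a background of genes that brain cells are not known to use, the levels were set beside those of 1092 olfactory receptor (Olfr) genes. Adcyap1r1, Npy1r, Insr and Oprk1 were above every Olfr gene in each of the 7 samples. The other receptors were above the 95th percentile of the Olfr genes in 7 of 7 samples, except Ghsr, which was above it in 5 of 7 and below it in the third and the fourth TR samples. Oprm1 passed narrowly in the third TR sample (0.604 CPM per kb, against a 95th percentile of 0.602). Per kb of exon union Oprm1 was at only 0.0943 to 0.488 CPM. Olfr levels were not computed on that length, so its place above them was set on the longest transcript only. This background also differed between the groups, with a mean of 0.126 to 0.305 CPM per kb over the Olfr genes in TR and 0.0187 to 0.0942 in NR samples. The difference in means was 0.148 CPM per kb for the Olfr genes and 0.822 CPM per kb for Lepr, and the part of such reads in the receptor levels was not tested.

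**Figure D3:**
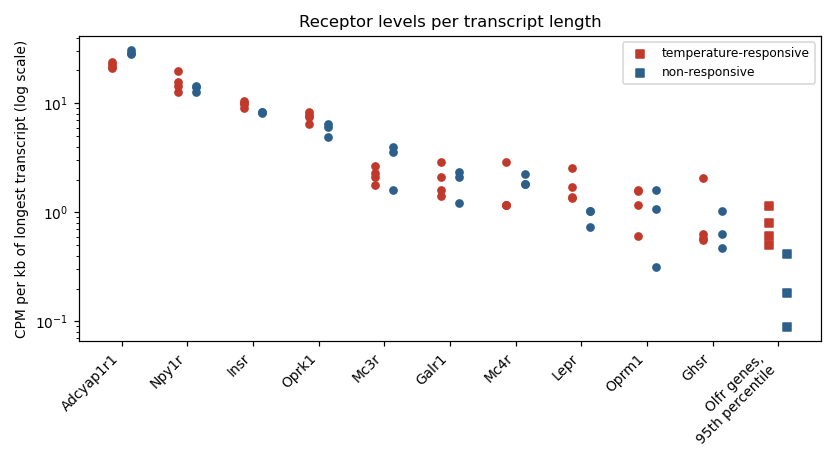
Receptor levels in CPM per kb of the longest transcript (log scale) by sample, in order of their mean, with red points for temperature-responsive and blue for non-responsive samples. Squares mark the 95th percentile of olfactory receptor genes, which is 0.500 to 1.14 CPM per kb in TR and 0.0891 to 0.419 in NR samples, and Adcyap1r1, Npy1r, Insr and Oprk1 lie far above it.

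The genes of the ligands were examined next, because a receptor can be supplied from within the same tissue. Of 20 genes listed as ligands of these or related receptors, 19 were in the files and 11 could be tested, of which 1 was higher (Vip) and 4 were lower (Penk, Pdyn, Pnoc and Gal) in TR neurons. These make up 45.5% of the ligands tested, beside 30% of all genes, and the median log2 fold change over all 11 was -0.48. Lep, Ins2 and Ghrl, which encode leptin, insulin and ghrelin and are made mainly outside the brain, did not reach the filter. Ins2 had 0 to 5 counts and Ghrl 2 to 6 counts per sample. Lep had 2, 16, 4 and 12 counts in the TR samples and 4, 7 and 2 in the NR samples.

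Of the 4 opioid peptide precursors on the list, Penk, Pdyn and Pnoc were lower in TR neurons and Pomc, described further on, did not pass the threshold. These 4 were not a list of their own, and 14.9% of all genes tested were called lower in TR. Penk, the precursor of enkephalins, was at 86.5, 118, 119 and 140 CPM in the TR samples and at 171, 185 and 202 CPM in the NR samples. The groups did not overlap, and Penk was 1.60-fold lower in TR neurons (log2 fold change -0.68, SE 0.119, edgeR quasi-likelihood test, Benjamini-Hochberg adjusted p = 0.000364), a call kept without any one sample (-0.78 to -0.57). In the annotation, 14.3% of its exonic bases are shared with A830012C17Rik. Pdyn, the precursor of the dynorphins that act on Oprk1, was at 29.5, 40.7, 39.1 and 42.8 CPM in TR and 49.2, 47.6 and 96.6 CPM in NR samples (log2 fold change -0.76, SE 0.221, adjusted p = 0.0159 in the same edgeR fit with Benjamini-Hochberg adjustment). The third NR sample was high, and the log2 fold change was -0.34 without it (adjusted p = 0.151) and -0.67 without the first TR sample (adjusted p = 0.0596). Pnoc, the precursor of nociceptin, was at 34.6, 14.6, 17.6 and 19.1 CPM in TR and 36.5, 39.0 and 35.5 CPM in NR samples (log2 fold change -0.79, edgeR, Benjamini-Hochberg adjusted p = 0.00672). The first TR sample lay just below the NR samples.

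Gal, the precursor of galanin, was at 36.0, 41.2, 55.9 and 42.5 CPM in the TR samples and at 48.0, 71.4 and 73.4 CPM in the NR samples, with the third TR sample above the first NR sample. Its log2 fold change of -0.55 (SE 0.162, edgeR, Benjamini-Hochberg adjusted p = 0.0128) did not pass without the second NR sample (-0.47, adjusted p = 0.0762) or without the third (-0.45, adjusted p = 0.0763). Vip, which encodes vasoactive intestinal peptide, a relative of PACAP, was at 54.7, 74.8, 105 and 60.9 CPM in TR and 58.2, 48.1 and 35.1 CPM in NR samples (log2 fold change 0.67, SE 0.203, edgeR, Benjamini-Hochberg adjusted p = 0.0201). The groups of Vip overlapped, and the call was lost without the third TR sample (0.44, adjusted p = 0.0593), the second NR sample (0.69, adjusted p = 0.0659) or the third NR sample (0.49, adjusted p = 0.106), and with a GC content offset (0.37, adjusted p = 0.226).

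Adcyap1, which encodes PACAP itself, overlapped between the groups (75.8, 123, 110 and 105 CPM in TR and 120, 117 and 105 CPM in NR samples), with a log2 fold change of -0.13 (edgeR, Benjamini-Hochberg adjusted p = 0.435). Npy (-0.20, adjusted p = 0.254), Pomc (-0.48, adjusted p = 0.448) and Agrp (-0.49, adjusted p = 0.414), which encode neuropeptide Y, the melanocortin precursor and the melanocortin antagonist, did not pass the threshold in the same edgeR fit with Benjamini-Hochberg adjustment. Pomc was at 22.9, 33.1, 25.2 and 68.7 CPM in TR and 36.2, 57.4 and 63.9 CPM in NR samples. Without the fourth TR sample, the highest, its log2 fold change was -0.97 (adjusted p = 0.00136).

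**Figure D4:**
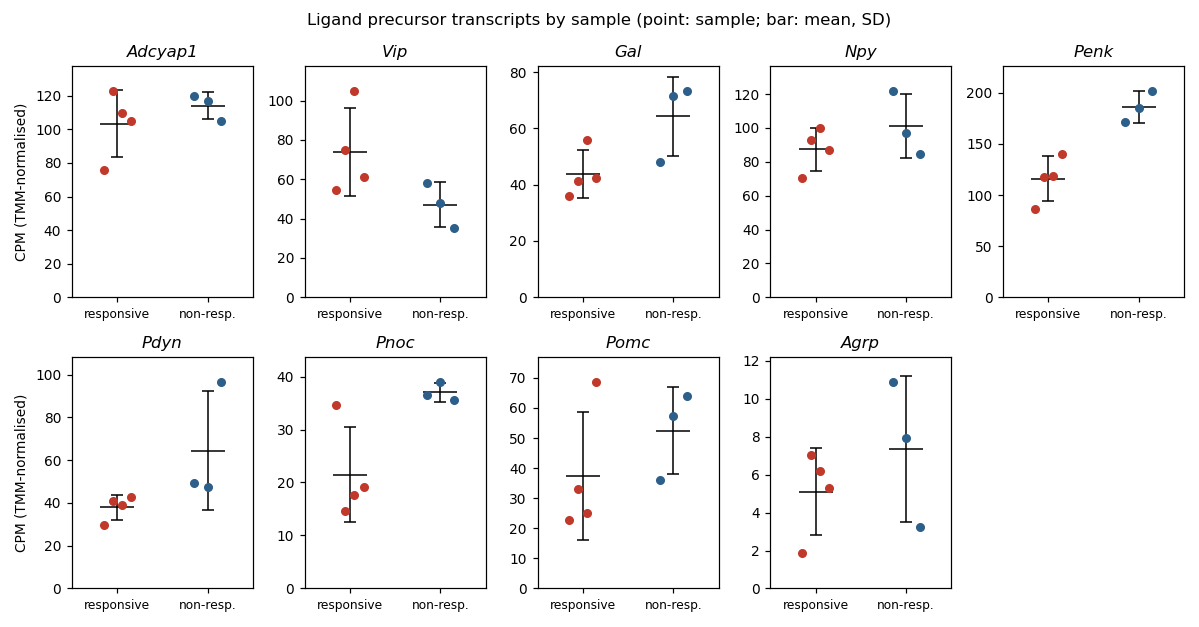
Level of 9 ligand precursor transcripts in CPM (vertical axes, each starting at 0) in the 4 temperature-responsive (red) and 3 non-responsive (blue) samples, with points for samples and bars for mean and SD. Penk, Pdyn and Pnoc are lower in every TR sample than in every NR sample, and the other 6 overlap. Of the 11 ligand genes tested, 27.3% did not overlap, against 35.4% of all genes tested.

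Of 8 genes for peptide processing, all tested, 1 passed the threshold (12.5%, beside 30% of all genes). Cpe, which encodes carboxypeptidase E, a trimming enzyme of peptide precursors, was at 826, 939, 697 and 682 CPM in TR and 649, 492 and 524 CPM in NR samples. Every TR sample was above every NR sample (log2 fold change 0.50, SE 0.120, edgeR, Benjamini-Hochberg adjusted p = 0.00339), and the call was kept without any one sample (0.41 to 0.63).

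Among 15 relatives of the 10 receptors, 9 were tested, of which 3 (33.3%, beside 30% of all genes) were higher and none lower in TR neurons, with a median log2 fold change of 0.49. Insrr, an orphan relative of the insulin receptor, had 7 to 16 counts in TR and 3 to 9 in NR samples (4.78 ± 1.07 CPM, SD, n = 4, against 1.30 ± 0.649 CPM, SD, n = 3, log2 fold change 1.89, edgeR, Benjamini-Hochberg adjusted p = 0.0129, and 1.49 with adjusted p = 0.0696 without the second NR sample). Mc1r, the melanocortin receptor of pigment cells, was at 6.08, 8.13, 10.6 and 13.1 CPM in TR and 3.62, 5.31 and 1.41 CPM in NR samples (1.47, adjusted p = 0.0102 in the same edgeR fit with Benjamini-Hochberg adjustment, and 1.07, adjusted p = 0.0573, without the third NR sample). Both rest on few counts and lie under 15 CPM, where higher calls outnumbered lower ones, and Gm38092 overlaps 17.9% of the exonic bases of Mc1r. Npy2r, the presynaptic Y2 receptor, was at 71.6, 127, 81.9 and 93.8 CPM in TR and 65.2, 62.3 and 70.6 CPM in NR samples. The groups were apart by 1 CPM at their nearest, and the log2 fold change was 0.49 (edgeR, Benjamini-Hochberg adjusted p = 0.0135). It was 0.33 without the second TR sample (adjusted p = 0.0736) and 0.45 without the second NR sample (adjusted p = 0.0647), and 0.27 with a GC content offset (adjusted p = 0.16). The remaining 6 did not pass, and are named here after their values were seen. Oprl1, the nociceptin receptor, was nearly equal in both groups (98.0 ± 7.11 CPM, SD, n = 4, against 97.3 ± 0.990 CPM, SD, n = 3), and Igf1r (-0.079), Vipr1 (-0.17), Vipr2 (0.77), Npy5r (0.33) and Oprd1 (0.66) had adjusted p from 0.162 upward in edgeR with Benjamini-Hochberg adjustment.

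Downstream of the leptin and insulin receptors, 30 of 31 listed signalling genes were tested, of which 5 were higher and 9 lower in TR neurons (46.7%, beside 30% of all genes, median log2 fold change -0.12). All of those tested but Stat5a and Shc1 lie at 15 CPM or more, where 36.0% of all genes passed. Irs2, an adaptor of the insulin receptor, was at 15.4, 15.2, 19.4 and 28.7 CPM in TR and 25.9, 44.5 and 53.6 CPM in NR samples, a 2.08-fold lower mean (log2 fold change -1.06, SE 0.235, edgeR, Benjamini-Hochberg adjusted p = 0.00251), with the fourth TR sample above the first NR sample. Grb2, an adaptor between receptor tyrosine kinases and Ras, was at 56.6 to 74.7 CPM in TR and 96.3 to 110 CPM in NR samples (-0.60, adjusted p = 0.000755 in the same edgeR fit with Benjamini-Hochberg adjustment). Both calls were kept without any one sample. Stat5a, a transcription factor downstream of cytokine receptors, was higher in TR neurons (10.6 ± 3.41 CPM, SD, n = 4, against 4.23 ± 2.21 CPM, SD, n = 3, log2 fold change 1.31, edgeR, Benjamini-Hochberg adjusted p = 0.0133), and so was Shc1, an adaptor of receptor tyrosine kinases (9.80 ± 0.454 CPM, SD, n = 4, against 4.84 ± 1.60 CPM, SD, n = 3, 1.02, adjusted p = 0.0265). Without the second TR sample neither passed (1.17, adjusted p = 0.0541 for Stat5a and 1.00, adjusted p = 0.0594 for Shc1, in edgeR with Benjamini-Hochberg adjustment), nor without the third NR sample (0.95, adjusted p = 0.0757, and 0.75, adjusted p = 0.126), and Shc1 was also lost without the third TR sample (1.02, adjusted p = 0.0506).

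A further 3 called genes of this list are named after their values were seen, whereas 16 of the 30 did not pass. All 3 are lower in TR neurons, although 5 of the 14 called genes of the list were higher. Called genes of the list left unnamed went in both directions, with adjusted p from 0.00141 upward (edgeR, Benjamini-Hochberg). Socs3, a feedback inhibitor of the leptin receptor, was at 19.6, 43.9, 43.1 and 35.7 CPM in TR and 41.6, 51.2 and 59.9 CPM in NR samples (log2 fold change -0.52, edgeR, Benjamini-Hochberg adjusted p = 0.0483). Ptpn1, a phosphatase that acts on Jak2 and the insulin receptor, was at 38.4, 56.9, 56.7 and 58.0 CPM in TR and 67.3, 72.8 and 75.2 CPM in NR samples (-0.45, adjusted p = 0.017 in the same edgeR fit with Benjamini-Hochberg adjustment). Sh2b1, an adaptor that enhances leptin signalling, was at 49.9 to 61.4 CPM in TR and 63.7 to 77.9 CPM in NR samples (-0.35, edgeR, Benjamini-Hochberg adjusted p = 0.0386). None of these 3 calls was firm, since Ptpn1 was lost without the first TR (-0.33, adjusted p = 0.0567), second NR (-0.44, adjusted p = 0.0585) or the third NR sample (-0.41, adjusted p = 0.0605), Socs3 without the first (-0.34, adjusted p = 0.129) or the fourth TR sample (-0.51, adjusted p = 0.0892) or the second (-0.52, adjusted p = 0.119) or the third NR sample (-0.39, adjusted p = 0.221), and Sh2b1 without the second (-0.29, adjusted p = 0.12) or the fourth TR (-0.35, adjusted p = 0.075) or the second (-0.30, adjusted p = 0.153) or the third NR sample (-0.31, adjusted p = 0.119), in the same edgeR fits with Benjamini-Hochberg adjustment.

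Among 5 accessory genes of melanocortin signalling, 4 were tested and 1 passed, beside 30% of all genes. The gene that passed was Sdc3, a cell surface proteoglycan known to bind agouti-related peptide. It was at 61.6 to 68.0 CPM in TR and 83.3 to 104 CPM in NR samples (log2 fold change -0.50, edgeR, Benjamini-Hochberg adjusted p = 0.00259), and 7.73% of its exonic bases overlap other genes. Of 7 genes that desensitise G protein-coupled receptors, 3 were lower and none higher in TR neurons (42.9%, beside 30% of all genes, median log2 fold change -0.31). The log2 fold change was positive for 3 of the 7 and negative for 4. All but Grk4 and Grk5 lie at 15 CPM or more, where 36.0% of all genes passed. Arrb2, which encodes beta-arrestin 2, was at 26.0 to 47.2 CPM in TR and 48.1 to 56.7 CPM in NR samples (-0.59, adjusted p = 0.00915 with edgeR and Benjamini-Hochberg adjustment), a call kept without any one sample. Arrb1, which encodes beta-arrestin 1 (-0.43, edgeR, Benjamini-Hochberg adjusted p = 0.0117), was lost without the third NR sample (-0.33, adjusted p = 0.0843). Adrbk1, the older symbol of Grk2, a kinase that primes receptors for arrestin binding (-0.33, edgeR, Benjamini-Hochberg adjusted p = 0.0196), was lost without the second TR (-0.27, adjusted p = 0.08) or the third NR sample (-0.27, adjusted p = 0.107). Over all 69 related genes tested, 10 were higher and 17 lower, a share of 39.1% beside the 30% of all genes, and without the third NR sample 14 were called. With the genes detected as a covariate none of them passed.

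**Figure D5:**
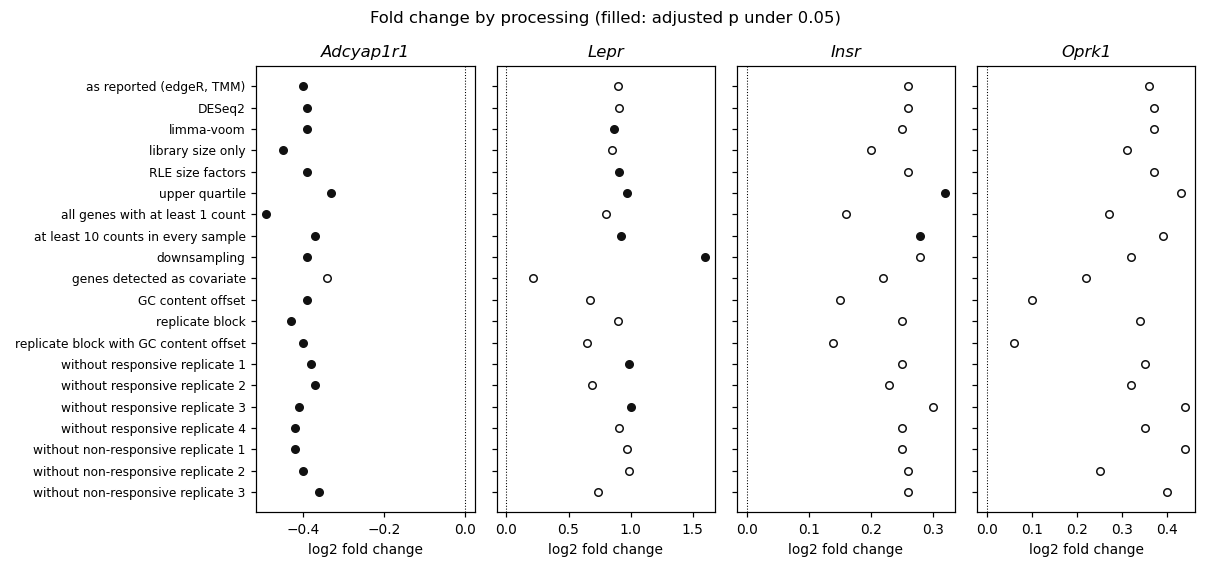
Log2 fold change of Adcyap1r1, Lepr, Insr and Oprk1, temperature-responsive minus non-responsive (horizontal axes, each with its own scale), under each alternative analysis (rows), with filled points where the adjusted p was under 0.05. Adcyap1r1 is filled in 18 of 19 alternatives, Lepr in 7, Insr in 2 and Oprk1 in none, and no point crosses 0.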

How the data were processed

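Per the labels and methods, 2 neurons were pooled per sample, amplified with SMART-seq V4 and sequenced in 1 lane. The authors aligned reads to mm10 with STAR 2.6.0, removed duplicates, counted with HTSeq 0.9.1 and deposited raw counts per gene symbol. Without molecular identifiers, that removal may discard distinct molecules too. The annotation and strand setting are not given in the sources used here, so overlapping genes are uncertain.

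Groups came from the temperature-response label. Genes reaching 10 counts in 3 or more samples were fitted with edgeR 4.0.16 (robust quasi-likelihood test, TMM, two-sided, Benjamini-Hochberg adjustment, R 4.3.3), and DESeq2 1.42.0, limma 3.58.1 and other settings served as alternatives. The script was tested on simulated data. Pairs of samples of 1 group differed by more than counting noise (chi-square per degree of freedom 2.03 to 5.11). Gene positions, lengths and GC were taken from GENCODE M21, where 94.6% of symbols were found.

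The members and lists were chosen with earlier results of these data known. All 10 receptors and the ligand genes of the 10 receptors were to be named, and at most 4 called genes of each other list, by size of the log2 fold change; 9 more were named after their values were seen.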

Additional observations from a re-analysis of the deposited data

Results flagged for a closer look

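Among 43 measures checked in the 4 TR samples for a single sample far from the others, 3 were flagged by Dixon's ratio of the gap to the range. The 3 NR samples were not checked in this way. Chance flags about 1 in 20 such groups. The second TR sample was high for Ghsr (9.22 CPM, ratio 0.951), the fourth TR sample was high for Mc4r (8.14 CPM, ratio 0.992), and the first TR sample was low for Ptpn1 (38.4 CPM, ratio 0.931). The second TR sample had the smallest library and the most genes detected.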

How the results depend on the processing

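Of 178 receptor log2 fold changes over the alternatives, 158 kept their direction and side of the threshold, 1 was no longer past it, 9 were newly past it and 10 changed sign, none of these 10 called. The number of receptors called was 2 with limma-voom, RLE size factors and downsampling, 3 with upper quartile normalisation and with at least 10 counts in every sample, 0 with the genes detected as a covariate, and 1 to 2 without each sample in turn. Only 8 receptors were tested with downsampling and 6 with at least 10 counts in every sample. Over all genes, 4390 of 14407 were called with limma-voom, 4299 with RLE size factors and 4242 with upper quartile normalisation. Downsampling called 3641 of 13243 genes, and at least 10 counts in every sample 4048 of 12220. The covariate of genes detected left 1 gene called of all genes (2061 at an unadjusted p under 0.05) and 0 of the related genes. The genes detected did not overlap between the groups, so that this covariate and the group cannot be told apart. Without each sample in turn, 2620 to 4583 genes were called over all genes and 14 to 28 of the related genes, the lowest both without the third NR sample.

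The sign turned for Ghsr (-0.14), Mc3r (0.12), Galr1 (-0.82), Oprm1 (-0.35) and Vipr2 (-0.088) with the genes detected as a covariate, for Galr1 with all genes of at least 1 count (-0.022) and with downsampling (-0.23), for Vipr1 with downsampling (0.31), and for Oprl1 with library size only (-0.037), all genes of at least 1 count (-0.078), GC offset (-0.018), replicate block (-0.0046) and both (-0.024). It turned for Npy1r with the replicate block and GC offset (-0.15). Without 1 sample it turned for Galr1 (-0.18 to 0.28), Oprm1 (-0.12 to 0.60), Oprl1 (-0.021 to 0.059) and Vipr1 (-0.42 to 0.041). The cause was not tested.

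Same-numbered samples did not deviate together (mean correlation -0.0527, range -0.128 to 0.0316). With 3 NR samples such pairs are few, so this does not decide whether the numbers pair samples. With the replicate block, 4124 genes, 1 receptor and 24 related genes were called, and with block and GC offset 2850, 1 and 15. Of all calls, 50.3% were higher in TR, against 62.1% with upper quartile normalisation and 37.1% with the GC offset. Of 560 values for the other named genes, 466 kept direction and side, 78 were no longer past the threshold, 5 newly past it and 11 changed sign. Per kb of exon union, Insr was at 6.25, Oprk1 at 3.48 and Oprm1 at 0.342 CPM. Counts of 4 to 30 per sample limit Ghsr, Oprm1 and Lepr, and those of Mc4r (6 to 31), Galr1 (9 to 37) and Mc3r (10 to 52) were also low.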
